A study of Rattus norvegicus with 6 samples.

Results

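The Notch genes described here are 10 rat genes: the receptors Notch1, Notch2, Notch3 and Notch4, the ligands Jag1, Jag2 and Dll1, and the target genes Hes1, Hey1 and Heyl. They were taken from the count files by exact match of the gene symbol, and all 10 were found among the 31038 symbols listed. RNA sequencing libraries came from rat cells that had received an siRNA against eIF3m (3 libraries) or a control siRNA (3 libraries). eIF3m is a subunit of translation initiation factor 3, which helps bring the small ribosomal subunit to mRNA. The labels call the cells myocardial and NRVM, without spelling that name out, and the growth text traces them to the heart muscle of rat embryos. Nothing in the labels tells whether the 3 replicates came from different cultures. The p-values therefore cover only how far these libraries scatter, and that scatter may be technical.

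Notch receptors are membrane proteins that bind ligands of the Jagged and Delta-like families on neighbouring cells. Binding lets an ADAM protease and then the gamma-secretase complex cut the receptor, and the freed intracellular domain joins the DNA-binding protein RBPJ and a Mastermind coactivator to switch on genes of the HES and HEY families. In the heart and its vessels the pathway is known for roles in valve and trabecula formation, in endothelial identity (Notch1, Notch4) and in vascular smooth muscle and pericytes (Notch3), and in skeletal muscle it is known to hold precursor cells back from differentiation.

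Total counts ran from 2156186 to 10061575 in the eIF3m libraries and from 7437285 to 8603602 in the control libraries. The knockdown target Eif3m stood at 92.0, 84.1 and 87.6 CPM in eIF3m replicates 1, 2 and 3, against 138, 136 and 141 CPM in control replicates 1, 2 and 3, where CPM is the usual unit of counts scaled to library totals, here after TMM scaling. Of the defining markers of cardiomyocytes, Myh6, Myh7, Actn2 and Myl2 each stayed at or below 1.05 CPM in every library, and 2 of the 13 listed markers were at or under 3 counts in every library. The 3 that could be tested all fell, beside 21.2% of all tested genes (edgeR test given below). The troponin gene Tnnt2 lay at 143 to 159 CPM in eIF3m libraries and 360 to 377 CPM in controls. Pln, which regulates the calcium pump, lay at 2.29 to 4.87 CPM in eIF3m libraries and 23.0 to 27.2 CPM in controls. Titin, Ttn, lay at 6.73 to 12.0 CPM in eIF3m libraries and 20.1 to 28.7 CPM in controls. One library stood apart. In eIF3m replicate 1, 13 of 15 listed endothelial genes and 5 of 5 red cell genes had their highest level, with Pecam1 at 11.1 CPM there, at most 0.120 CPM in eIF3m replicates 2 and 3 and at most 0.246 CPM in controls. The same library held the highest level of 5 of 6 leukocyte genes and 5 of 9 fibroblast genes. The fibroblast gene Dcn was at 55.5 CPM there and at most 2.21 CPM in every other library. Results on the Notch genes are therefore given with and without that library.

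Of the 10 Notch genes, 6 passed the filter on low counts and were tested. Notch3, Notch1 and Hes1 rose with the eIF3m siRNA, Notch2, Jag1 and Jag2 did not pass the test, and 0 fell. Among all 12724 tested genes 17.4% were called higher and 21.2% lower, 38.7% in either direction (edgeR quasi-likelihood test, Benjamini-Hochberg adjusted p under 0.05, two-sided). For 48.6% of these genes the CPM of the 2 groups did not overlap, so a lack of overlap is common here. The median log2 fold change, eIF3m siRNA over control siRNA, was 0.71 over the 6 Notch genes and 0.01 over all tested genes. Without eIF3m replicate 1, Notch1, Notch3 and Hes1 were again the 3 called higher and 0 were lower, against a background of 15.0% and 19.1%. In bulk libraries of this kind, fewer cells of a type and less RNA per cell cannot be told apart. The 4 genes that did not pass the filter, Notch4, Dll1, Hey1 and Heyl, lay at 1.53 CPM or below in each library.

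**Figure D1:**
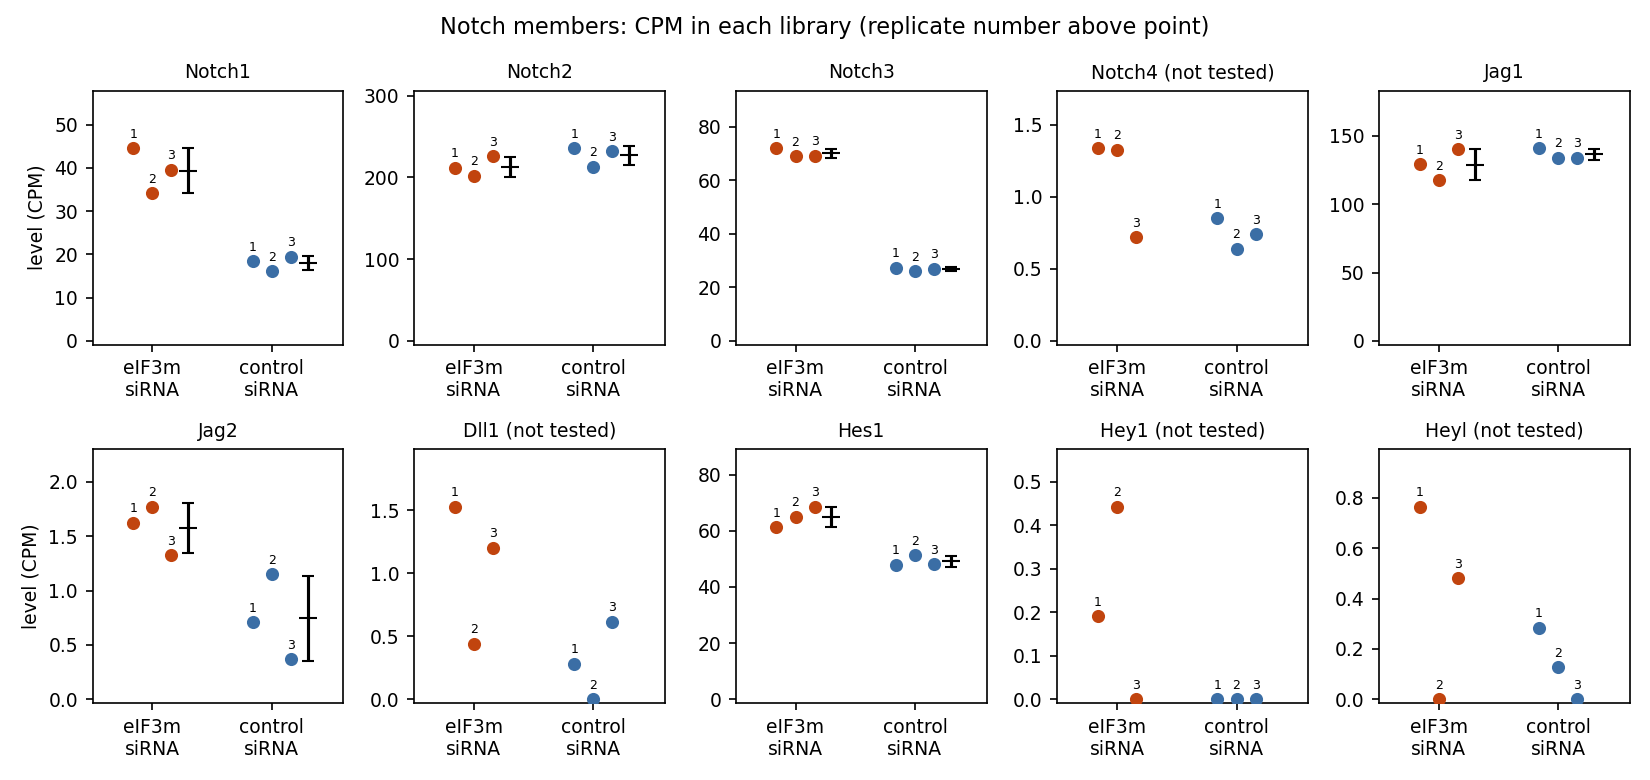
Level of each of the 10 Notch genes in CPM (vertical axis, linear, from 0) in the 3 eIF3m and 3 control libraries, numbered by replicate. Bars give the mean and SD of the 6 tested genes. Notch1, Notch3 and Hes1 have every eIF3m library above every control library. So does Jag2, which alone of these did not pass the test, while Notch2 and Jag1 overlap. Of all tested genes, 48.6% had groups that did not overlap.

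Notch3, the receptor best known from smooth muscle cells and pericytes, was measured at 72.0, 69.1 and 69.3 CPM in eIF3m replicates 1, 2 and 3, against 27.4, 26.1 and 27.0 CPM in control replicates 1, 2 and 3. The groups lay far apart and each was tight, with a coefficient of variation of 2.32% in eIF3m libraries and 2.43% in control libraries. The mean was 70.1 ± 1.63 CPM in eIF3m libraries and 26.8 ± 0.651 CPM in control libraries (SD, n = 3 each). Its log2 fold change was 1.39 ± 0.07 SE (95% interval 1.25 to 1.54; edgeR adjusted p = 4.70e-10). That is a rise of 162%, which ranked 138 by size among the 2220 genes called higher and 82 by p among all genes tested. The counts behind it were 753, 156 and 576 in eIF3m replicates 1, 2 and 3, against 193, 204 and 219 in controls. Without eIF3m replicate 1 the log2 fold change was 1.37 ± 0.09 SE (adjusted p = 1.75e-10), so the rise was nearly as large without the library that carried endothelial and blood transcripts.

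Notch1, the receptor with broad roles from endothelium to muscle precursors, was measured at 44.5, 34.1 and 39.6 CPM in eIF3m replicates 1, 2 and 3, against 18.4, 16.1 and 19.5 CPM in control replicates 1, 2 and 3. Every eIF3m library lay above every control library, and the eIF3m libraries differed more among themselves than for Notch3. The lowest of them, replicate 2, rested on 77 counts, for which counting error alone is 11.4%. The mean was 39.4 ± 5.23 CPM in eIF3m libraries and 18.01 ± 1.71 CPM in control libraries (SD, n = 3 each), a log2 fold change of 1.17 ± 0.11 SE (95% interval 0.94 to 1.41; edgeR adjusted p = 7.04e-07). Its highest value was in eIF3m replicate 1. Without that library the log2 fold change was 1.07 ± 0.13 SE (adjusted p = 1.19e-06).

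Notch2, the receptor that took most of the receptor reads, did not pass the test. It stood at 212, 202 and 226 CPM in eIF3m replicates 1, 2 and 3, against 236, 213 and 232 CPM in control replicates 1, 2 and 3, and the groups overlapped. The log2 fold change was -0.08 ± 0.06 SE, with a 95% interval of -0.20 to 0.04 (edgeR adjusted p = 0.258). With no scaling factors between libraries the value was 0.06, and with libraries thinned to one depth 0.02, neither past the threshold. The upper end of the interval lies below the lower ends of the intervals of Notch1 and Notch3.

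Notch4, a receptor of endothelium, had 14, 3 and 6 counts in eIF3m replicates 1, 2 and 3, against 6, 5 and 6 counts in control replicates 1, 2 and 3. These are 1.34, 1.33 and 0.722 CPM in eIF3m libraries, against 0.851, 0.640 and 0.739 CPM in controls, and the groups overlapped. With 3 counts as the floor, which equals 0.287 to 1.33 CPM in these libraries, eIF3m replicate 2 stood at the floor. Notch4 did not pass the filter with all 6 libraries. The 5 alternatives that tested it gave log2 fold changes of 0.45 to 0.83 and edgeR adjusted p from 0.288 to 0.590, so a difference was not detectable at this depth.

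The make-up of the receptor reads can be measured without any scaling between libraries. Of all reads on the 4 receptor genes, Notch2 took 65.8% ± 1.57 in eIF3m libraries and 83.3% ± 0.196 in control libraries (SD, n = 3 each). Notch3 took 21.7% ± 0.964 in eIF3m libraries and 9.86% ± 0.293 in controls. For Notch1 the share was 12.1% ± 1.24 in eIF3m libraries and 6.60% ± 0.348 in controls. None of these 3 shares overlapped between the groups, and exact permutation tests (two-sided, n = 3 each) gave p = 0.1, the smallest that 3 against 3 allows. In single libraries the 95% Wilson interval of the Notch3 share ran from 20.5% to 23.3% in eIF3m replicate 1 and from 8.47% to 11.1% in control replicate 1, for counting error only. Reads were not divided by transcript length, so the shares compare groups and do not rank the receptors by abundance.

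**Figure D2:**
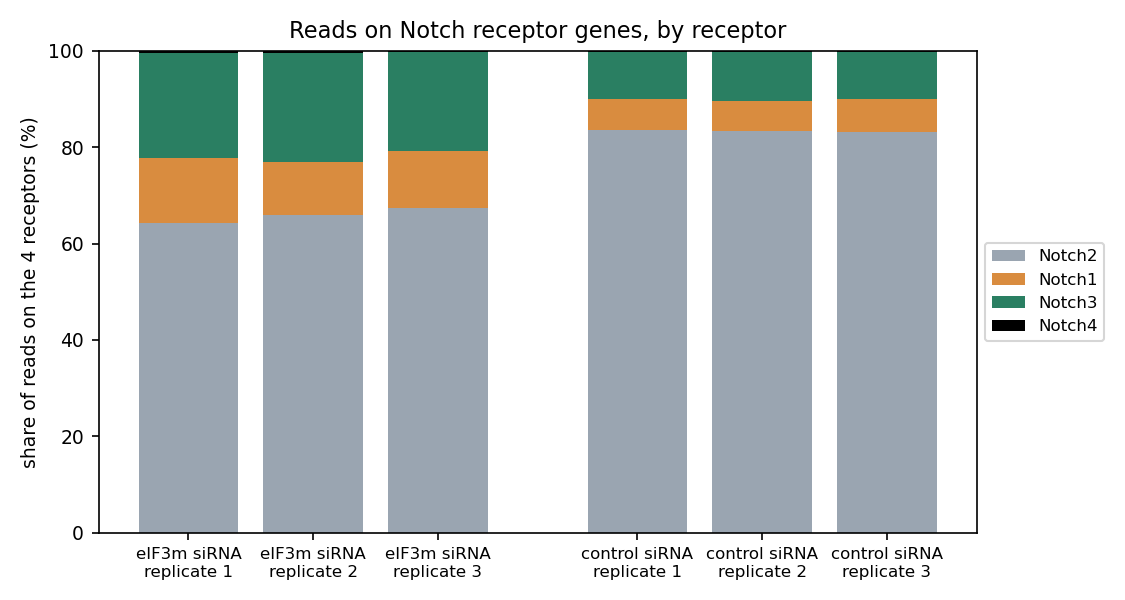
Share of the reads on Notch1, Notch2, Notch3 and Notch4 (vertical axis, percent, stacked to 100) in each of the 3 eIF3m and 3 control libraries. Notch2 takes 64.2% to 67.4% in eIF3m libraries and 83.1% to 83.5% in controls, and Notch3 and Notch1 fill the difference.

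As ratios of counts within a library, Notch3 to Notch2 was 0.340, 0.342 and 0.306 in eIF3m replicates 1, 2 and 3, against 0.116, 0.122 and 0.116 in control replicates 1, 2 and 3. The ratio was 2.78-fold higher in eIF3m libraries. The Notch1 to Notch2 ratio was 2.32-fold higher, at 0.169 to 0.210 in eIF3m libraries and 0.0756 to 0.0840 in controls. Neither ratio overlapped between the groups. The ratio of Notch1 to Notch3 lay at 0.494 to 0.619 in eIF3m libraries and at 0.618 to 0.721 in controls, and these ranges just met. Of 4 ratios compared, the first pair had p = 0.1 (the smallest possible), Notch1 to Notch3 had p = 0.2 and Jag1 to Notch2 had p = 0.9 by exact two-sided permutation tests. Adjusted over the 4, the values were 0.2, 0.2, 0.267 and 0.9. The summed level of the 4 receptors was 324 ± 15.4 CPM in eIF3m libraries and 272 ± 14.2 CPM in controls (SD, n = 3 each), with no overlap (p = 0.1, exact permutation test, the smallest possible).

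Among the ligands, Jag1 was well covered and did not pass the test. It stood at 129, 118 and 140 CPM in eIF3m replicates 1, 2 and 3, against 141, 134 and 134 CPM in control replicates 1, 2 and 3. The eIF3m libraries spread around the control values. The log2 fold change was -0.06 ± 0.06 SE, with a 95% interval of -0.19 to 0.06 (edgeR adjusted p = 0.432), and 0.08 with no scaling factors, also not past the threshold. Within a library the count of Jag1 relative to Notch2 was 0.605 ± 0.0193 in eIF3m libraries and 0.602 ± 0.0251 in controls (SD, n = 3 each).

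Jag2, a second Jagged ligand, was measured at 1.63, 1.77 and 1.32 CPM in eIF3m replicates 1, 2 and 3, against 0.709, 1.15 and 0.370 CPM in control replicates 1, 2 and 3. The eIF3m libraries all lay above the controls, on 17, 4 and 11 counts in eIF3m libraries, against 5, 9 and 3 counts in controls. The log2 fold change of 1.03 ± 0.47 SE did not pass (95% interval 0.01 to 2.04; edgeR adjusted p = 0.102). It passed under none of the 12 alternatives that tested it, with adjusted p from 0.0566 to 0.338. Of all tested genes, 48.6% had groups that did not overlap.

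Dll1, a Delta-like ligand that acts in muscle and vascular development, had 16, 1 and 10 counts in eIF3m replicates 1, 2 and 3, against 2, 0 and 5 counts in control replicates 1, 2 and 3. In CPM these are 1.53, 0.443 and 1.20 in eIF3m libraries, against 0.284, 0 and 0.616 in controls, so the groups overlapped through eIF3m replicate 2, the smallest library. It did not pass the filter in the comparison of all 6 libraries. Of the 5 alternatives that tested it, 3 called it higher: no filter (log2 fold change 1.89, adjusted p = 0.0474), without eIF3m replicate 2 (2.13, adjusted p = 0.0325) and without control replicate 3 (3.03, adjusted p = 0.0255). Without control replicate 1 (adjusted p = 0.106) or control replicate 2 (adjusted p = 0.127) it did not pass, and the sizes rest on controls near the floor. Its highest level was in eIF3m replicate 1.

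Hes1, a repressor of the basic helix-loop-helix family and a direct target of Notch, was the 1 target gene of the 3 with enough counts for a test. It was measured at 61.4, 65.1 and 68.6 CPM in eIF3m replicates 1, 2 and 3, against 47.9, 51.3 and 48.2 CPM in control replicates 1, 2 and 3. All eIF3m libraries lay above all controls, and eIF3m replicate 1 was the lowest of the 3. The mean was 65.0 ± 3.59 CPM in eIF3m libraries and 49.1 ± 1.88 CPM in control libraries (SD, n = 3 each), a log2 fold change of 0.40 ± 0.07 SE (95% interval 0.26 to 0.54; edgeR adjusted p = 1.77e-04). The rise was 31.9%, against 125% for Notch1 and 162% for Notch3. Without eIF3m replicate 1 it was 0.46 ± 0.08 SE (adjusted p = 1.37e-04).

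Hey1 and Heyl, which encode relatives of Hes1 known as Notch targets in endothelium and smooth muscle, had few counts. Hey1 had 2, 1 and 0 counts in eIF3m replicates 1, 2 and 3, against 0 in every control library, all at or under the floor of 3 counts. Heyl had 8, 0 and 4 counts in eIF3m replicates 1, 2 and 3, against 2, 1 and 0 in control replicates 1, 2 and 3. The groups overlapped through the 0 of eIF3m replicate 2, and its highest value was in eIF3m replicate 1. Neither gene passed the filter, and with no filter neither passed the test (edgeR adjusted p = 0.291 for Hey1 and 0.254 for Heyl). No fold is given, since the control libraries lay at or under the floor. Dll1 and Heyl had their highest level in the library with the endothelial and red cell transcripts, whose part in these low values was not tested. Notch4, at 1.34 CPM in that library, was nearly level with eIF3m replicate 2, at 1.33 CPM.

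**Figure D3:**
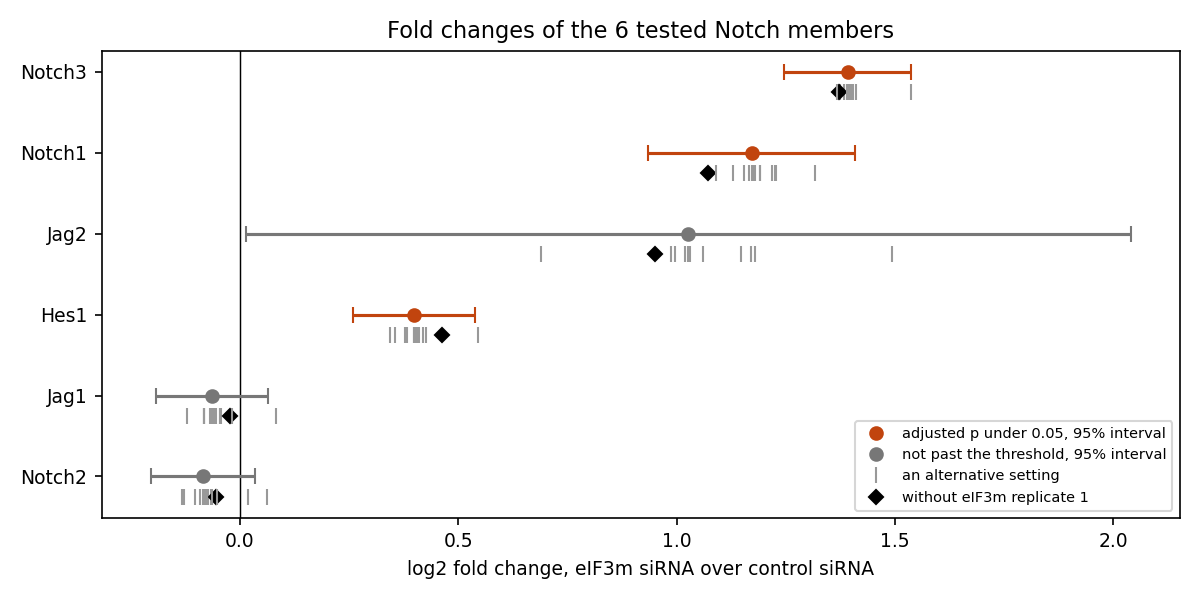
Log2 fold change (horizontal axis, eIF3m siRNA over control siRNA) of the 6 tested Notch genes with 95% intervals, and beneath each the values under up to 14 alternative settings. Notch3 at 1.39, Notch1 at 1.17 and Hes1 at 0.40 stay above 0 under every one, and the black diamonds mark the values without eIF3m replicate 1.

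The promoters of the 3 Notch genes called higher are shown because RBPJ is known to bind the letters TGGGAA. Whether RBPJ acts on these genes here was not tested. RefSeq windows of 300 bases on assembly GRCr8, from 250 bases before the gene start to 50 after it, were found for 9 of the 10 genes (not Hey1), and Jag2 had a pair of them. GRCr8 is not the build of the count files. Each sequence is written 5′ to 3′ along the gene, and capitals mark TGGGAA or its reverse complement.
Hes1 (GRCr8 chr11:84212996-84213295, minus strand): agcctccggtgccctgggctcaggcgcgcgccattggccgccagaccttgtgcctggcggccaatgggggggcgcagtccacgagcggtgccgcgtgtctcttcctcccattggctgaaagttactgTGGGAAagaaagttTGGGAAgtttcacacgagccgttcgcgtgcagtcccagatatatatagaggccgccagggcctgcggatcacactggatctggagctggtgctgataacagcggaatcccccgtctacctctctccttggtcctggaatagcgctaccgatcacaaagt
Notch3 (GRCr8 chr7:11834536-11834835, minus strand): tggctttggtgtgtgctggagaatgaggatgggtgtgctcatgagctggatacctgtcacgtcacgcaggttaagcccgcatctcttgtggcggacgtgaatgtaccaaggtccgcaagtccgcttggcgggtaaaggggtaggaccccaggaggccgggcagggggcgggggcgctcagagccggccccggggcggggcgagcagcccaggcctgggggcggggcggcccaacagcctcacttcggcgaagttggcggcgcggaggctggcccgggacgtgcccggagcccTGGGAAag
Notch1 (GRCr8 chr3:29721564-29721863, minus strand): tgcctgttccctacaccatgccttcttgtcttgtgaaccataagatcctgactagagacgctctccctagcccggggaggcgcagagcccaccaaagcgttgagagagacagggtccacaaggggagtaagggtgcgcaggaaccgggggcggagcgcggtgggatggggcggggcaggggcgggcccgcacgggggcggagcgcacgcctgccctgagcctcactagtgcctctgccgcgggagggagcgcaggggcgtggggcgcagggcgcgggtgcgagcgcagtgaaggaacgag
The Hes1 window held 2 copies of TGGGAA, on the strand of the gene, beginning at positions -123 and -109 from the gene start. The Notch3 window held 1 copy, which begins 42 bases after the start, and the Notch1 window held 0. Among all 33469 RefSeq windows of this length, 25.7% held the motif on either strand and 3.85% held at least 2 copies. Of the Notch genes that did not pass the test, Notch2, Jag1 and Jag2 held 0, while Notch4 and Dll1, which had too few counts, held 2 each, and Heyl held 0. The letters CACNAG, a motif known to bind HES repressors, occurred 4 times in the Hes1 window and 4 times in the Notch1 window, where a pair of matches overlap. The Notch3 window held 1 match and the Notch4 window 2, while those of Notch2, Jag1, Jag2, Dll1 and Heyl held 0. Of all windows, 43.1% held it on either strand and 11.2% held at least 2 copies. None of these matches overlapped a TGGGAA. A match of letters describes the window and shows no binding.

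The remaining Notch pathway was followed in 8 lists with 89 symbols in all, of which 75 genes were tested. Among them 7 rose and 30 fell, which is 9.33% and 40.0%, against 17.4% and 21.2% of all tested genes. Their median log2 fold change was -0.12 against 0.01 for all tested genes. With no scaling factors 18 rose and 21 fell, beside 32.7% and 13.2% of all genes. Each list below is small, and its counts are to be read against these shares. The lists were chosen with earlier results of these data known, and 7 of the 30 fallen genes belong to the mural list below. They also mix activators with antagonists and corepressors, so the pooled shares give no direction for the pathway.

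In the receptor cleavage list 0 rose and 5 fell of 6 tested, with a median of -0.52, and those 5 fell past the threshold under all 14 alternatives. Nicastrin, Ncstn, the large extracellular subunit of gamma-secretase, stood at 56.9% to 59.5% of the control mean in eIF3m libraries and at 93.5% to 103% in controls. Its level was 171 ± 4.08 CPM in eIF3m libraries and 294 ± 16.6 CPM in controls (SD, n = 3 each), a log2 fold change of -0.79 ± 0.05 SE (edgeR adjusted p = 1.51e-08). Other gamma-secretase genes fell as well: Psenen by 0.69, the presenilin gene Psen2 by 0.53 and the scaffold subunit Aph1a by 0.40 on the log2 scale. Of the ADAM proteases that make the first cut, Adam10 fell by 0.50, to 32.3 ± 4.39 CPM in eIF3m libraries against 47.0 ± 2.55 CPM in controls, while Adam17, named after its values were seen, was at -0.10 ± 0.07 SE (adjusted p = 0.259). Notch1 and Notch3 thus rose in the same libraries in which 5 genes of their cleavage fell.

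**Figure D4:**
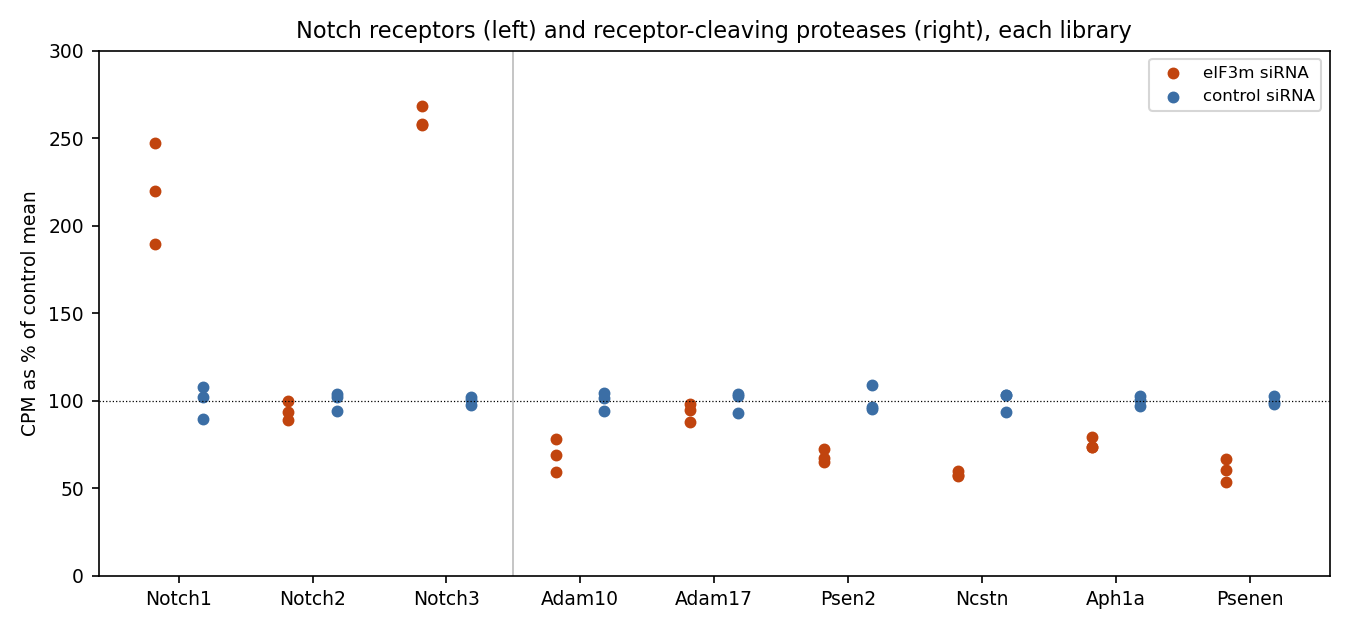
Level of 3 Notch receptors (left of the grey line) and of the genes that cleave them (right) as a percent of the control mean (vertical axis, linear) in each eIF3m library and each control library. Notch1 lies at 189% to 247% and Notch3 at 258% to 268% in eIF3m libraries, while Ncstn lies at 56.9% to 59.5%.

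Of the genes that modify receptors in the secretory pathway, 0 rose and 2 fell of 5. Poglut1, which adds glucose to the receptor's EGF repeats, fell by 0.39 (not past the threshold with thinned libraries, -0.28, adjusted p = 0.0689) and Furin, the convertase that cuts the precursor, by 0.37 on the log2 scale. Among further ligands and ligand-binding proteins 0 rose and 2 fell of 6. Mfap5, a microfibril protein reported to bind Jagged1, was at 159 ± 8.39 CPM in eIF3m libraries and 269 ± 14.2 CPM in controls (-0.77 ± 0.06 SE, edgeR adjusted p = 3.91e-08), and Egfl7, a secreted protein reported to antagonise Notch, fell by 0.56. Dll4, the ligand of arterial endothelium, had 4, 3 and 2 counts in eIF3m replicates 1, 2 and 3, against 1, 4 and 2 in control replicates 1, 2 and 3.

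Ubiquitin and endocytosis regulators counted 2 risen and 6 fallen of 17 (11.8% and 35.3%, against 17.4% and 21.2% of all genes). Those that fell with the lowest p were the ubiquitin ligases Nedd4 (-0.34 ± 0.02 SE), Dtx3 (-0.51 ± 0.06) and Mib2 (-0.30 ± 0.07), the Numb relative Numbl (-0.43 ± 0.05) and the dynamin Dnm2 (-0.20 ± 0.05). The pair that rose, named after their values were seen, were the ligand-activating ligase Mib1 (0.36 ± 0.12) and the endocytic adaptor Epn2 (0.23 ± 0.07). Without eIF3m replicate 3 or without control replicate 1, 2 or 3, as with DESeq2 or thinned libraries, 1 rose, and with no scaling factors 5 rose and 3 fell. Mib2 (-0.15) and Dnm2 (-0.05) did not pass with no scaling factors, nor Dnm2 (-0.11) with thinned libraries.

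In the nucleus, coactivators, a list that holds Rbpj, counted 1 risen and 3 fallen of 9 (11.1% and 33.3%). Rbpj, the DNA-binding partner of the cleaved receptor, stood at 246 ± 21.6 CPM in eIF3m libraries and 275 ± 5.80 CPM in controls (SD, n = 3 each; -0.17 ± 0.06 SE, edgeR adjusted p = 0.0292). That call was narrow: it passed when eIF3m replicate 2 was left out, but not without eIF3m replicate 1 (-0.12) or 3 (-0.17) or control replicate 1 (-0.18), 2 (-0.16) or 3 (-0.19), nor with no scaling factors (-0.03). The Mastermind gene Maml2 (-0.36 ± 0.10) and the acetyltransferase Kat2b (-0.63 ± 0.11) fell, and the related acetyltransferase Kat2a rose (0.47 ± 0.05). Maml2 did not pass without eIF3m replicate 1 (-0.29, adjusted p = 0.0519), with no scaling factors (-0.21, adjusted p = 0.0901) or with thinned libraries (-0.13, adjusted p = 0.550), and in each of these settings 1 coactivator fell in all. With no scaling factors 3 coactivators rose. Corepressors counted 3 risen and 1 fallen of 14 (21.4% and 7.14%), a share of risen genes near the 17.4% of all genes, and 8 rose and 0 fell with no scaling factors. The Groucho family genes Tle4 (0.52 ± 0.09), Tle3 (0.24 ± 0.06) and Aes (0.20 ± 0.03) rose, and the RBPJ corepressor Spen (-0.23 ± 0.06) fell. Leaving out eIF3m replicate 1 put Tle3 at 0.16, not past the threshold. Spen (-0.09) did not pass with no scaling factors.

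Among further HES, HEY and direct target genes 1 rose and 4 fell of 11 tested. The cell cycle inhibitor Cdkn1a rose (0.26 ± 0.07 SE), and the transcription factor Sox9 (-1.07 ± 0.13), the repressor Bhlhe40 (-0.42 ± 0.05), the cyclin Ccnd1 (-0.20 ± 0.03) and the ephrin Efnb2 (-0.30 ± 0.11) fell. Ccnd1 was at -0.05 and did not pass with no scaling factors. Efnb2 missed the threshold under 10 of 14 alternatives, among them without eIF3m replicate 1 (-0.33), 2 (-0.28) or 3 (-0.29) and without control replicate 1 (-0.29) or 3 (-0.22). Nrarp, a feedback inhibitor that Notch itself induces, stood at 3.37 ± 0.619 CPM in eIF3m libraries and 3.00 ± 1.10 CPM in controls (0.24 ± 0.32 SE, 95% interval -0.45 to 0.92, edgeR adjusted p = 0.597). Hey2, another HEY repressor, had 10, 1 and 11 counts in eIF3m replicates 1, 2 and 3, against 0, 2 and 0 in control replicates 1, 2 and 3. Its eIF3m libraries all lay above the controls in CPM, but it did not pass the filter and was called higher (adjusted p = 0.00537) only where no filter was used.

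Genes that Notch signalling has been reported to raise in smooth muscle cells and pericytes fell, 7 of 7 tested, with a median of -0.79. Whether Notch acts on them in these cells was not tested. With no scaling factors, and with robust dispersion, 6 were called lower. Pdgfrb, the PDGF receptor of mural cells, stood at 375 ± 10.4 CPM in eIF3m libraries and 732 ± 11.4 CPM in controls (SD, n = 3 each), a log2 fold change of -0.96 ± 0.04 SE (edgeR adjusted p = 1.50e-11). Acta2, Tagln, Cnn1 and Des, of the contractile and filament apparatus, fell by 0.52, 0.66, 0.79 and 1.23 on the log2 scale. Smtn and Myh11, named after their values were seen, were at -0.29 ± 0.06 SE and -1.23 ± 0.26 SE. Notch3, often expressed with these genes in vessel walls, thus stood higher in the libraries in which they stood lower. Not all mural markers fell. A marker list that shares Pdgfrb, Acta2, Myh11, Tagln and Cnn1 with this one had 9 tested, 1 risen and 7 fallen. Of its further genes, Abcc9 (-1.05 ± 0.07 SE) and Mcam (-0.27 ± 0.05 SE) fell. The pericyte marker Cspg4 rose, at 5.64, 7.53 and 7.10 CPM in eIF3m replicates 1, 2 and 3, against 3.55, 2.43 and 2.71 CPM in control replicates 1, 2 and 3 (1.18 ± 0.26 SE, edgeR adjusted p = 0.00186). Kcnj8, a potassium channel gene of pericytes, was at 0.10 ± 0.10 SE (edgeR adjusted p = 0.456). Rgs5 was at 0 in all control libraries and was not tested. It had 20, 1 and 1 counts in eIF3m replicates 1, 2 and 3 (1.91, 0.443 and 0.120 CPM), so it was near 0 outside replicate 1.

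**Figure D5:**
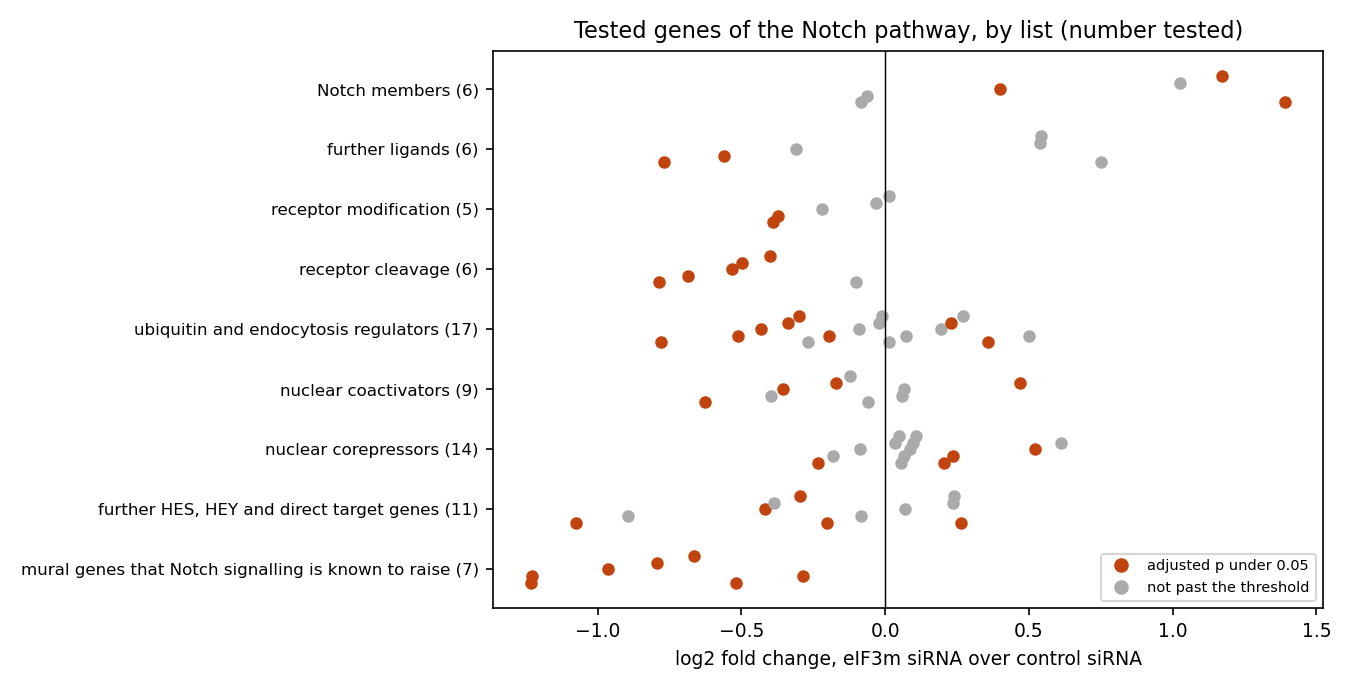
Log2 fold change (horizontal axis, eIF3m siRNA over control siRNA) of every tested gene of the Notch members and of the 8 pathway lists, 1 point per gene, with the number tested in brackets. Points in the receptor cleavage and mural lists all lie below 0, whereas Notch3, Notch1 and Jag2 lie beyond 1.

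Other cell states moved with the groups. The 4 cycling markers all rose, with a summed level of 495 to 522 CPM in eIF3m libraries and 295 to 299.8 CPM in controls. Of the 5 tested skeletal myoblast markers 0 rose and 4 fell. Among all tested genes, 17.4% were called higher and 21.2% lower. Myog, a driver of myoblast differentiation, was at 4.78 to 6.20 CPM in eIF3m libraries and 16.9 to 22.1 CPM in controls. Myod1, at 13.3 to 19.5 CPM in eIF3m libraries and 13.2 to 17.9 CPM in controls, did not pass (-0.09 ± 0.16 SE, edgeR adjusted p = 0.705). The part of the cycling or the myoblast markers in the levels of Notch1, Notch3 and Hes1 was not tested. The summed level of the 15 endothelial markers was 288 CPM in eIF3m replicate 1, 89.9 and 82.7 CPM in eIF3m replicates 2 and 3 and 143 to 148 CPM in controls, while Cdh5 was at 0 in all libraries but eIF3m replicate 1. Outside that library a pair of genes carried most of the sum, Flt1 and Ptprb. Flt1 lay at 50.5 to 51.5 CPM in eIF3m libraries and 95.03 to 98.3 CPM in controls. It fell (-0.91 ± 0.05 SE, edgeR adjusted p = 2.95e-09). Ptprb lay at 41.3, 15.9 and 17.3 CPM in eIF3m replicates 1, 2 and 3 and 34.7 to 42.3 CPM in controls. It did not pass the test (adjusted p = 0.146). Of 5 tested endothelial markers, 3 were called higher: Vwf (2.74 ± 0.72 SE), Mmrn2 (2.94 ± 0.67) and Stab1 (2.26 ± 0.51). Each was highest in eIF3m replicate 1. In eIF3m replicates 2 and 3 Stab1 stood at 3.98 and 2.41 CPM, against at most 1.70 CPM in controls. Mmrn2 stood at 3.98 and 1.20 CPM there, on 9 and 10 counts, against at most 1.13 CPM. Vwf, at 12.8 and 8.66 CPM, overlapped the controls (6.78 to 12.2 CPM).

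The 3 genes whose pattern over the 6 libraries was most like that of Notch3, by the root-mean-square difference of centred log2 CPM among 10485 genes, were Lnc215 (0.0662), Erbb3 (0.0943) and Nfkbiz (0.102). Lnc215 stood at 118, 115 and 130 CPM in eIF3m replicates 1, 2 and 3, against 48.5, 47.1 and 46.2 CPM in control replicates 1, 2 and 3. Erbb3, a receptor of neuregulins, was at 24.95 ± 1.53 CPM in eIF3m libraries and 10.3 ± 0.198 CPM in controls (SD, n = 3 each). Nfkbiz, a nuclear inhibitor of the NF-kappaB family, was at 67.3 ± 3.59 CPM in eIF3m libraries and 24.6 ± 2.01 CPM in controls.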

How the data were processed

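RNA-seq was analysed in 3 eIF3m siRNA and 3 control siRNA libraries, grouped and numbered by the labels. The authors deposited whole-number counts per gene symbol with no normalisation. The submitters' processing notes list rn6 as the build and, with no roles, HISAT2 2.2.1, Trimmomatic 0.40, featureCounts, limma and DESeq2. For annotation, strand and multi-mapping reads the setting is not given in the sources used here, and reads of overlapping genes cannot be told apart. Symbols turned into dates (27 of 31038; 0.203% to 0.216% of counts) were left out.

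The counts went into edgeR 4.0.16 (R 4.3.3): filterByExpr (minimum count 10, minimum total 15), TMM scaling, quasi-likelihood F-test of eIF3m over control with no covariate, and Benjamini-Hochberg adjustment over 12724 genes with a threshold of 0.05. SE is the fold change over the root of F. The smallest library, with 2156186 counts, sets the precision at low levels, and floors and Wilson intervals cover counting error only, whereas intervals of fold changes include the scatter between replicates. The step was tested on simulated data in which few genes changed, as many up as down. Since 38.7% of genes were called here, that setting does not test the scaling under so broad a change. Replicates of a group differed by more than sampling noise. Alternatives were DESeq2 1.42.0, RLE or no scaling, robust dispersion, no filter or a minimum count of 50, thinned libraries, a replicate block and leaving out each library. Named genes were Eif3m, the 10 Notch genes, up to 5 called genes per list by p, Rbpj, Hey2, Nrarp, Dll4 and 3 genes nearest in profile to Notch3 (mean of at least 5 CPM, pseudocount 0.5 CPM). Members and lists were chosen with earlier results of these data known. A pair of genes from these lists is not reported here and was left out of their counts.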

Additional observations from a re-analysis of the deposited data

How the results depend on the processing

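Notch1, Notch3 and Hes1 stayed higher and past the threshold under all 14 alternatives, with log2 fold changes of 1.07 to 1.32, 1.37 to 1.54 and 0.34 to 0.55. The count of Notch genes called higher was 3 or 4 throughout, the fourth being Dll1, and 0 were called lower. Notch2 turned to 0.0626 with no scaling factors and to 0.0198 with thinned libraries, and Jag1 to 0.0831 with no scaling factors, never past the threshold. Removing the scaling factors moves the median of all genes up by 0.15 on the log2 scale, so that 4163 genes were called higher and 1680 lower (71.2% of calls higher, against 45.1%), and 18 genes of the pathway lists rose. Against that shift of the median, both lie lower. Thinned libraries called 1308 genes higher, with fewer counts in 5 of the 6 libraries. Of 43 tested named genes, 9 lost a call under at least 1 alternative and none gained one.

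With the replicate number as a block, 2123 genes were called higher and 2632 lower, Notch1, Notch3 and Hes1 were the 3 Notch genes that passed, and 7 pathway genes rose and 30 fell. The labels do not say that the numbers pair the libraries. Deviations of same-numbered libraries correlated at 0.03, -0.01 and 0.01, and not every library correlated best with its own number. Depth limits Notch4, Hey1 and Heyl, which passed under no alternative that tested them, and Dll1, whose call depends on the filter and on which library is left out.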
